A study of Mus musculus with 5 samples.

Results

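H3K9ac peaks that were found both with and without 4-deoxypyridoxine (DOP) and that lay between 1 and 10 kb from the nearest protein-coding transcript start are described here. They were selected by overlap and by distance from the 2 peak lists as deposited, 1 list for DOP-treated cells and 1 for untreated cells. A peak became a member when its interval overlapped a peak of the other list by 1 bp or more and its centre was more than 1 kb and at most 10 kb from the nearest start of a protein-coding transcript. There were 2449 members among the 34286 DOP peaks (7.14%) and 2442 among the 33355 untreated peaks (7.32%). All samples came from STHdh Q111 cells, an immortalized striatal progenitor line of C57BL/6 background that is homozygous for a knock-in huntingtin allele with an expanded CAG repeat (STHdhQ111/Q111). Both conditions were placed in serum-free medium for 24 h, the untreated cells with DPBS as vehicle and the treated cells with 4 mM DOP. Chromatin was precipitated with an antibody to histone H3 acetylated at lysine 9 in 2 samples per condition, and 1 sample with normal rabbit IgG served the study as control. The wild-type STHdh line was not analysed here, so the lists hold a mutant line only. Each condition was deposited as a single list, with no list per sample, so differences between conditions carry no replicate error and were not tested. Intervals given below cover the counting of peaks only, and peaks that lie side by side are not independent.

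Acetylation of histone H3 at lysine 9 is placed by acetyltransferases such as GCN5, PCAF and their complexes and removed by histone deacetylases. It marks nucleosomes at active promoters, usually strongest on those just downstream of the transcription start, and is also found at active enhancers. DOP inhibits S1P lyase (SPL), the enzyme that degrades sphingosine-1-phosphate (S1P), and nuclear S1P is known to bind and inhibit the class I deacetylases HDAC1 and HDAC2. Peaks at an intermediate distance from a start can be the shoulder of a broad promoter domain, an enhancer, or the promoter of a transcript that is not protein-coding.

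The sequences of 3 of the 4 highest-ranked members with CpG-island-like sequence are printed first, because base composition, which the selection did not use, set members apart from promoter peaks. Each run is the 200 bp interval of the DOP peak on the plus strand of mm9, and capitals mark CG dinucleotides. The peak at chr8:47826029-47826228 lay 1029 bp downstream of the start of Irf2, a transcription factor of the interferon response, in an intron. The peak at chr4:141102289-141102488 lay 7876 bp upstream of Spen, an RNA-binding corepressor, and 284 bp from the start of the annotated pseudogene B330016D10Rik. The peak at chr4:115748864-115749063 lay 1089 bp downstream of Lrrc41, a leucine-rich repeat gene, in an intron.
Irf2: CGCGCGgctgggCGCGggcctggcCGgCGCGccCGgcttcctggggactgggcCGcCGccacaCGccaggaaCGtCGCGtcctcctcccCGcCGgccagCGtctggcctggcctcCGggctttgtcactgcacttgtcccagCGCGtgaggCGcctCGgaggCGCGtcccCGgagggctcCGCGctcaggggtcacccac
Spen: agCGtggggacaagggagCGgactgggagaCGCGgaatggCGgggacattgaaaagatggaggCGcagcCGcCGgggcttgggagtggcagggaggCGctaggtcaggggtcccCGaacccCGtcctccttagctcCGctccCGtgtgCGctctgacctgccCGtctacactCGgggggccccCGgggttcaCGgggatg
Lrrc41: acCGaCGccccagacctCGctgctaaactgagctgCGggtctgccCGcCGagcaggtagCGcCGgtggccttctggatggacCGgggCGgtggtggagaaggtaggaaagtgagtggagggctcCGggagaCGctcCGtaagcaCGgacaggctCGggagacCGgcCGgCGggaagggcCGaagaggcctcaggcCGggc

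These intervals held 28, 18 and 20 CG dinucleotides in the order printed, and their GC contents were 78, 69.5 and 70%. The peak in the untreated list that overlapped each of them ranked just as high. The Irf2 peak stood at percentile 99.6 of both lists by score, the Spen peak at 99.6 and 99.5, and the Lrrc41 peak at 99.2 and 99.2. The percentile is the share of peaks of the same list with an equal or lower score, ties counted at their mean rank.

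Other members lacked CpG-island-like sequence and held the letters TGANTCA, with any base at N. The forms TGACTCA and TGAGTCA are the usual site of AP-1 factors (dimers of Fos and Jun proteins). The forms TGAATCA and TGATTCA were counted with them, here and below. Of the DOP members without CpG-island-like sequence, 5.62% held TGANTCA in any of these forms. The 4 highest-ranked members of this kind are printed with the TGANTCA match in capitals, which is TGAATCA in the Skil peak. They lay at chr19:46578501-46578700 in an intron of Trim8 (a ubiquitin ligase), at chr3:30992853-30993052 upstream of Skil (a repressor of Smad signaling), at chr15:81978863-81979062 in an intron of Srebf2 (the transcription factor of cholesterol synthesis) and at chr8:108130343-108130542 in an intron of Fam65a.
Trim8: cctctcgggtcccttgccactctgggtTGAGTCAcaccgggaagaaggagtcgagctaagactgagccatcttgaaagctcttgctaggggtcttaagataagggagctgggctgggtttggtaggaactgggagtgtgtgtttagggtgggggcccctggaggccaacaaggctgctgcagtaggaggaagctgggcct
Skil: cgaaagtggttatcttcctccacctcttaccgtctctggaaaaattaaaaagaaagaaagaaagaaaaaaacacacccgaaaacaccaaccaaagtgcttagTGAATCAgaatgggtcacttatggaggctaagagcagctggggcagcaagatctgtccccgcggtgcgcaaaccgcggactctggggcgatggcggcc
Srebf2: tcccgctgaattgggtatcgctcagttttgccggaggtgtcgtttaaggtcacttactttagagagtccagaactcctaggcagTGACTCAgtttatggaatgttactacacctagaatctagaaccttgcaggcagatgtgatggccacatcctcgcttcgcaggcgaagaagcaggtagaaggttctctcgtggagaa
Fam65a: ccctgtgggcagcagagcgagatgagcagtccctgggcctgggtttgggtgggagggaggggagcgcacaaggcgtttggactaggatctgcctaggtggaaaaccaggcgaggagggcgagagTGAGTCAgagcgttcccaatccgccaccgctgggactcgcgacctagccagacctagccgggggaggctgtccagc

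All 4 were chained to a promoter peak, as defined below, and lay 2462, 1028, 1266 and 1313 bp from the start. They stood lower in the ranking than the CpG-rich set, but each set was picked for high rank from groups of unequal size. Of the DOP members, 760 were CpG-island-like and 107 held TGANTCA, with or without CpG-island-like sequence. The top of a larger group tends to rank higher, so this order says nothing about the kinds themselves. The Trim8 peak was at percentile 80.3 in DOP and 82.3 in untreated cells, the Skil peak at 81.4 and 77.1, the Srebf2 peak at 72.5 and 82.9, and the Fam65a peak at 73.1 and 71.3. A match of letters is a description of the sequence and not evidence that a factor was bound.

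Peaks at 1 to 10 kb were shared less often than peaks of the lists as a whole. Of the 3903 DOP peaks in this distance range, 62.7% overlapped an untreated peak, against 80.0% of all DOP peaks. Of the 3642 untreated peaks in the range, 67.1% overlapped a DOP peak, against 83.3% of all untreated peaks. Sharing and distance are the selection itself, so these shares are given as a description. With a stricter overlap of at least 50% of both intervals, 85.0% of the DOP members and 85.4% of the untreated members were still shared. At the inner limit, the DOP peaks nearest to Hexim1 and Etf1 at 1000 bp fell outside the selection and those of Napa at 1001 bp and Map3k11 at 1002 bp fell inside. At the outer limit, the DOP peaks of Ggnbp1 at 9990 bp and Spata4 at 9997 bp were kept, and those of Rapgef1 at 10003 bp and Il2rb at 10020 bp were not. In the untreated list the same limits separated Hoxa2 and Fhod1 (both 1000 bp) from Vps54 and Clstn1 (both 1001 bp), and Il2rb (9998 bp) and Klrb1c (9999 bp) from Tmpo (10007 bp) and Scarb1 (10013 bp). The Il2rb peak was thus a member in the untreated list only.

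Members were found on 20 chromosomes, the autosomes and X, with 45 to 260 per chromosome in DOP and 46 to 262 in untreated cells. Chromosome Y held peaks but no member. All peaks of both lists were 200 bp wide by construction of the call. The read depth of the samples is unknown, since the lists hold no counts.

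Members crowded just downstream of the start. In the DOP list 58.4% (1431 of 2449, 95% Wilson interval 56.5 to 60.4) lay downstream of the nearest start, and in the untreated list 58.5% (1428 of 2442, interval 56.5 to 60.4). The downstream excess lay in the first kilobase of the range. Between 1 and 2 kb downstream there were 809 DOP and 813 untreated members, or 29.5 and 29.6 per Mb of sequence in that bin. Between 1 and 2 kb upstream there were 264 and 270, or 10.3 and 10.5 per Mb. Over 2 to 10 kb together the order was the opposite, with 622 and 615 members downstream (3.43 and 3.39 per Mb) against 754 and 744 upstream (4.69 and 4.62 per Mb).

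**Figure D1:**
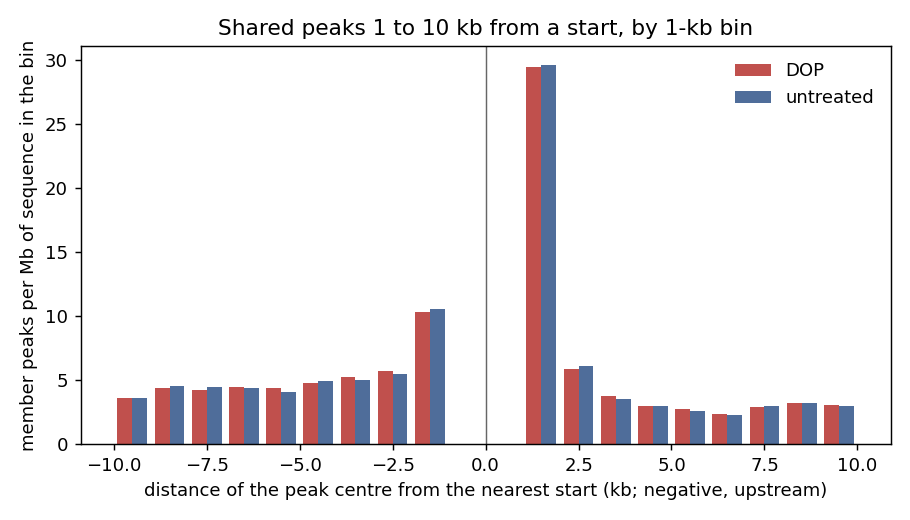
Member peaks per Mb of sequence (y axis) in 1-kb bins of distance from the nearest protein-coding start (x axis, kb, negative values upstream), for the DOP list (red bars) and the untreated list (blue bars). The bin from 1 to 2 kb downstream reaches 29.5 per Mb in DOP and 29.6 in untreated cells, against 10.3 and 10.5 in the matching upstream bin, from 2 to 3 kb the downstream side is still slightly denser (5.88 and 6.11 against 5.73 and 5.48 per Mb), and over 2 to 10 kb together the upstream side is denser (4.69 and 4.62 against 3.43 and 3.39).

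Compared with shared promoter peaks, here the 15904 DOP and 16108 untreated shared peaks whose centres lay more than 200 bp and at most 1 kb from a start, members were less often downstream. The difference was -19.7 percentage points in DOP (95% Newcombe interval -21.7 to -17.6) and -20.04 in untreated cells (-22.1 to -18.0). Compared with shared peaks 10 to 100 kb from a start, of which 50.6% and 50.4% were downstream, members were more often downstream, by 7.85 points (5.08 to 10.6) and 8.10 points (5.32 to 10.9). Peaks of the same distance without an overlap in the other list are called found in 1 list only. Some had a peak of the other list nearby. In this range 2715 DOP and 2693 untreated peaks had such a centre within 500 bp, against 2449 and 2442 with an overlap. Against peaks found in 1 list only, the difference was -1.75 points in DOP (-4.91 to 1.45) and -9.36 in untreated cells (-12.6 to -6.04). The DOP interval of this last comparison includes 0 and the untreated one does not.

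Distance alone mixes peaks that extend a promoter domain with peaks that stand by themselves. A member was called chained when neighboring centres of the same list, each at most 1 kb from the next, linked it to a peak within 1 kb of a start. In DOP 816 members (33.3%, Wilson interval 31.5 to 35.2) were chained, and in untreated cells 835 (34.2%, interval 32.3 to 36.1). The chained members lay mostly downstream, 82.0% in DOP and 82.2% in untreated cells, and 68.9% and 69.0% of them were in introns. The members standing apart, 1633 and 1607, were downstream in 46.7% and 46.2%, and 49.5% and 50.2% of them were outside protein-coding genes. The link to a promoter peak holds chained members near starts, where most peaks are downstream, so this contrast is largely set by the definition and is given as a description. Nearly all chained members were close to the start, with a median distance of 1276 bp in DOP and 1269 bp in untreated cells, against 4289 and 4345 bp for members standing apart.

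**Figure D2:**
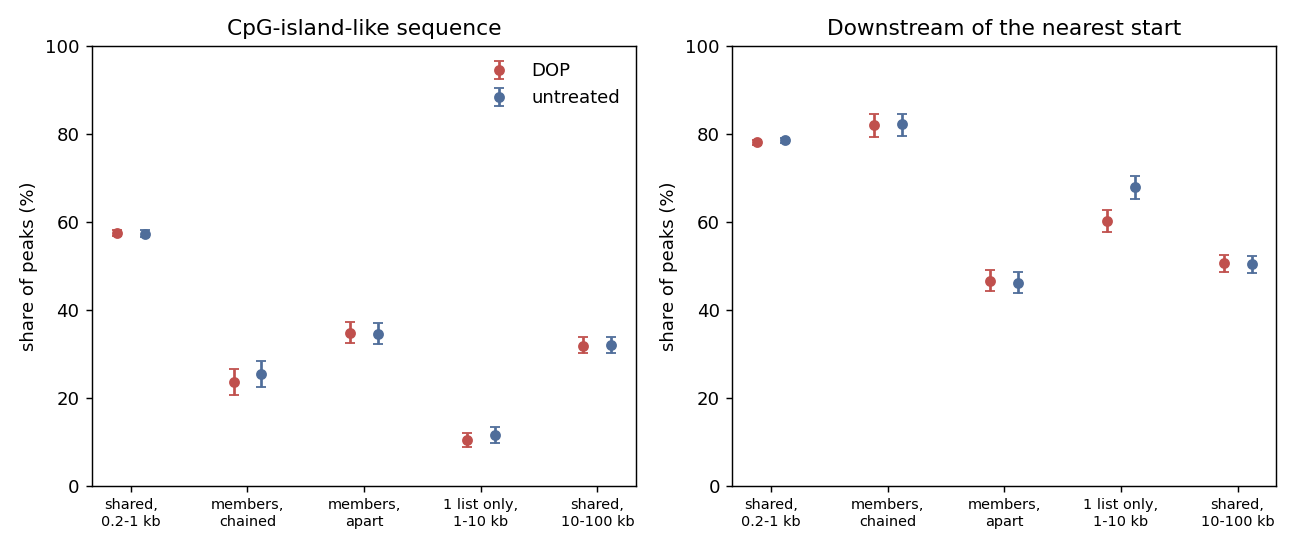
Share of peaks (y axis, %) with CpG-island-like sequence (left) and downstream of the nearest start (right) in 5 classes of peaks, for DOP (red) and untreated cells (blue). Points are shares and bars 95% Wilson intervals, which cover the counting of peaks only; chained members sit near the promoter class in position (82.0% and 82.2% downstream) but below it in CpG-island-like sequence (23.5% and 25.4% against 57.5% and 57.4%).

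CpG-island-like sequence was scarcer in members than at promoters. An interval was called CpG-island-like when its GC content was over 50% and its ratio of observed to expected CpG over 0.6. This held for 31.0% of DOP members (760 of 2449) and 31.4% of untreated members (767 of 2442, Wilson interval 29.6 to 33.3), against 57.5% and 57.4% of shared promoter peaks. The differences were -26.4 points in DOP (-28.4 to -24.4) and -25.9 points in untreated cells (-27.9 to -23.9), and the share was lower in members on 20 of 20 chromosomes in both lists. Shared peaks at 10 to 100 kb had nearly the same share as members, with differences of -0.86 points (-3.44 to 1.73) and -0.604 points (-3.20 to 1.99). Peaks at 1 to 10 kb found in 1 list only had far less, 10.3% in DOP and 11.5% in untreated cells, so members exceeded them by 20.7 points (18.3 to 23.1) and 19.9 points (17.3 to 22.4). Peaks found in 1 list only also stood lower in the ranking, with a median percentile of 15.1 in DOP and 15.7 in untreated cells against 39.97 and 37.6 for members. The part of rank in the sequence difference was not tested.

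Within the members, those standing apart were CpG-island-like more often than the chained ones, 34.8% against 23.5% in DOP and 34.5% against 25.4% in untreated cells. The difference, chained minus apart, was -11.3 points (-14.9 to -7.47) in DOP and -9.15 points (-12.8 to -5.33) in untreated cells. Chaining goes with distance and with side, and their parts in this difference were not tested. At 1 to 2 kb downstream, where 80.2% and 81.2% of members were chained, 24.1% and 25.7% were CpG-island-like. At 1 to 2 kb upstream 36.7% and 34.4% were, and at 2 to 3 kb downstream 35.7% and 31.9%. Members standing apart on the upstream side and on the downstream side differed little in composition, with CpG-island-like shares of 35.2% and 34.3% in DOP and 35.8% and 33.0% in untreated cells.

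Short motifs known to be bound by common factors were counted. Each motif was searched as letters on both strands of the 200 bp interval. The letters GGGCGG, bound by Sp and KLF factors, were in 19.2% of DOP and 19.8% of untreated members, against 31.4% and 31.7% of shared promoter peaks and 28.5% and 29.3% of all peaks. TGANTCA was in 4.37% of DOP and 3.97% of untreated members, against 2.44% and 2.36% of promoter peaks and 3.38% and 3.03% of all peaks. The difference in TGANTCA between members and promoter peaks was 1.93 points in DOP (1.15 to 2.84) and 1.61 points in untreated cells (0.866 to 2.49). Peaks of the same distance in 1 list only held TGANTCA more often than members, 6.19% and 5.83%, with differences of -1.82 points (-3.37 to -0.389) and -1.86 points (-3.49 to -0.399). Among DOP members, 5.62% of those without and 1.58% of those with CpG-island-like sequence held it, and its share apart from composition was not tested. CCGGAA (ETS factors) was in 7.02% and 6.63% of members against 9.09% and 9.16% of promoter peaks, and 8.57% and 8.85% of all peaks. TATAAA (the TATA box) was in 4.78% and 5.24% of members, against 2.69% and 2.51% of promoter peaks and 3.21% and 3.26% of all peaks. CAGCTG (an E-box) was in 12.7% and 13.1% against 10.2% and 10.0% of promoter peaks, and in 11.4% and 11.1% of all peaks. TGTGGT (RUNX factors) was in 9.31% and 10.3% against 7.60% and 7.49%, and in 8.50% and 8.42% of all peaks. CCAAT (NF-Y) was in 15.3% and 15.6% against 13.1% and 13.0%, and in 13.9% and 13.6% of all peaks. For GGAATG (TEAD factors) and the cAMP response element TGACGTCA the intervals of the difference from promoter peaks included 0 in both lists, and these motifs were in 8.50% and 8.24%, and in 0.213% and 0.228%, of all peaks. Against shared peaks at 10 to 100 kb, the interval of the difference included 0 in both lists for every motif except TGTGGT and TATAAA. For TGTGGT it excluded 0 in DOP only (-2.61 points, -4.33 to -0.898). For TATAAA it excluded 0 in untreated cells only (1.32 points, 0.153 to 2.50). Other motifs also went with composition among DOP members. GGGCGG was in 40.4% of those with and 9.71% of those without CpG-island-like sequence, and CCGGAA in 10.5% and 5.45%. In the same order, TATAAA was in 1.71% and 6.16%, CCAAT in 8.68% and 18.3%, and TGTGGT in 6.05% and 10.8%. For CAGCTG, in 11.2% and 13.4%, the interval of the difference included 0. The shares of these motifs apart from composition were not tested.

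By annotation, 47.9% of DOP members lay in introns, 38.1% outside protein-coding genes, 8.45% in coding exons, 2.82% in 3′ UTRs and 0.653% in 5′ UTRs. The untreated members were divided almost equally, with 48.4% in introns, 38.2% outside protein-coding genes and 8.11% in coding exons. Shared promoter peaks lay outside protein-coding genes in 16.4% and 16.1%, and shared peaks at 10 to 100 kb in 68.5% and 68.3%, so members stood between the 2 classes.

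Some members lay at the start of another transcript. A start of a non-coding gene or pseudogene was within 1 kb of 11.9% of DOP and 11.8% of untreated members, against 8.55% and 8.59% of shared promoter peaks, a difference of 3.34 points (2.04 to 4.74) and 3.16 points (1.87 to 4.56). Shared peaks at 10 to 100 kb had such a start within 1 kb more often than members, in 16.0% and 15.9%, a difference of -4.12 points (-6.05 to -2.20) and -4.13 points (-6.05 to -2.21). A start of a non-coding transcript of a protein-coding gene was within 1 kb of 8.82% and 8.72% of members, against 42.5% and 42.8% of promoter peaks and 34.0% and 34.6% of all peaks. Either kind was within 1 kb of 19.6% (480 of 2449) and 19.4% (473 of 2442) of members, against 46.8% and 47.0% of promoter peaks and 39.8% and 40.4% of all peaks. Members near such a start were CpG-island-like in 41.5% and 42.3%, and the remaining members in 28.5% and 28.8%, a difference of 13.0 points in DOP (8.19 to 17.8) and 13.5 points in untreated cells (8.66 to 18.4). Counted by the nearest such start, long intergenic non-coding RNAs (lincRNAs) accounted for 95 DOP and 92 untreated members, processed transcripts for 73 and 70, pseudogenes for 56 and 57, miRNAs for 25 and 27, and snoRNAs for 22 and 23. Any lincRNA start was within 1 kb of 4.16% and 4.05% of members, close to the 4.15% and 4.13% of all peaks. Removing all members near another start left 1969 members in each list, of which 59.5% in DOP and 59.4% in untreated cells were downstream.

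Members were spread over many genes. They were assigned to the gene of the nearest protein-coding start, and 1654 genes had a member in DOP, 1658 in untreated cells and 1602 in both, which is 7.16% of the 22380 annotated protein-coding genes. Of the 11005 genes with a shared peak within 1 kb of a start, 1231 (11.2%) had members in both lists. Members within 1 kb of each other formed 1855 loci in DOP and 1861 in untreated cells, 75.5% and 75.9% of them a single peak. Only 26 genes in DOP and 25 in untreated cells had 5 members or more.

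The gene with the most members was Tnrc18, which encodes a large protein with a BAH domain. It had 11 members in each list, 8 upstream and 3 downstream, from 1855 to 6580 bp away in DOP and from 1851 to 6440 bp away in untreated cells. Their percentiles ran from 49.6 to 99.3 in DOP, with a median of 96.1, and from 51.6 to 99.1 in untreated cells, with a median of 96.3. On the upstream side the 4 nearest members were all at percentile 94.3 or above in both lists, and the farthest, 6580 and 6440 bp upstream, were at 49.6 in DOP and 58.6 in untreated cells. Bahcc1, the paralog of Tnrc18, was also among the genes with the most members, with 6 in DOP and 5 in untreated cells, all CpG-island-like.

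Kdm6b, the demethylase of histone H3 lysine 27, had 8 members in DOP and 7 in untreated cells and no peak within 1 kb of a protein-coding start. Its members lay on both sides, from 2219 to 6052 bp away in DOP. The DOP peaks at 2718 and 3531 bp downstream were at percentiles 91.1 and 89.6, and their untreated counterparts at 2702 and 3489 bp were at 83.7 and 90.8. Cdkn1b, the cyclin-dependent kinase inhibitor p27, had 6 members in DOP and 8 in untreated cells and 4 promoter peaks in each list. Most of its members formed a second group 6644 to 8867 bp downstream in DOP, past the end of the gene, with percentiles of 67.8 to 97.9. The same group ran from 6641 to 9019 bp in untreated cells, with percentiles of 28.7 to 97.2. Hoxb2, a homeobox gene of the Hoxb cluster, had 7 members in each list, of which 6 were downstream and 6 were chained to its promoter peak.

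**Figure D3:**
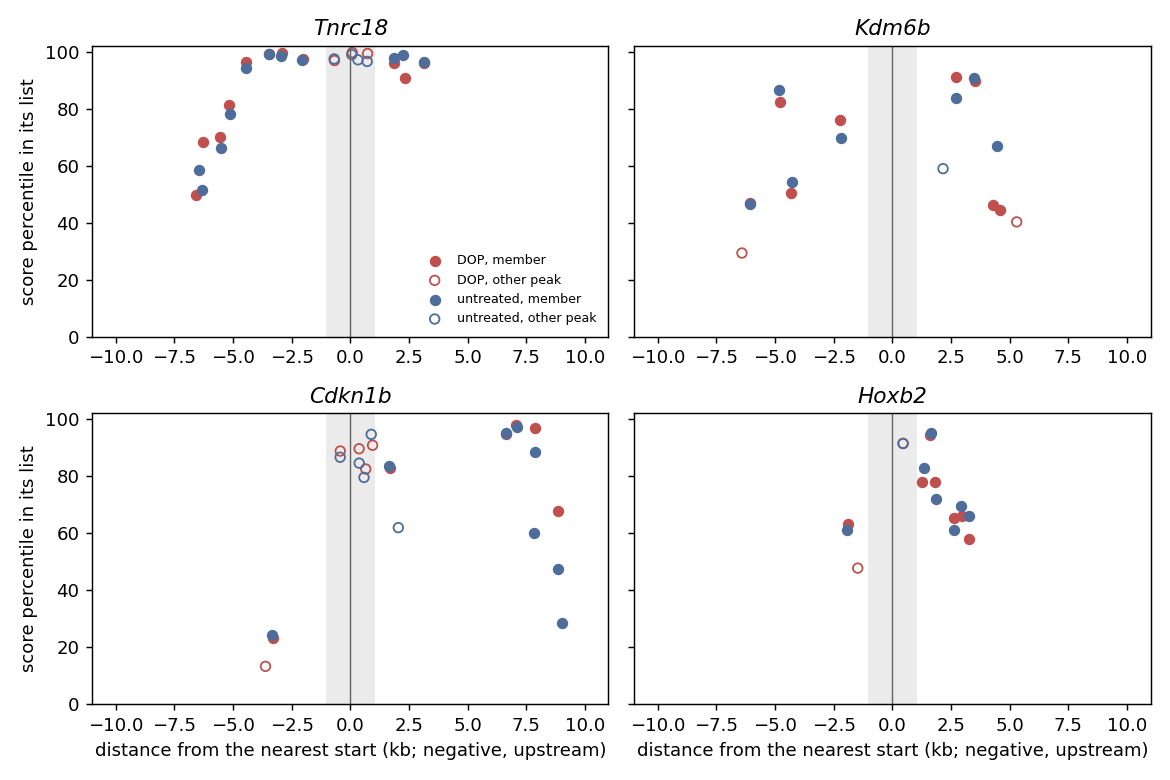
Score percentile within its list (y axis) of each peak assigned to Tnrc18, Kdm6b, Cdkn1b and Hoxb2 against distance from the nearest protein-coding start (x axis, kb, negative values upstream), DOP in red and untreated in blue, with members filled and other peaks open. The grey band marks 1 kb on each side of the start; Kdm6b has no peak in it, and Cdkn1b has a second group of members from 6641 bp downstream outwards.

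Other genes with many members, counted over both lists, were 6430527G18Rik, AB041803, Rnf4 (a SUMO-targeted ubiquitin ligase) and the T-box factor Tbx15 with 12 each, and Adcy6 (adenylyl cyclase), the nuclear receptors Nr2f2 and Rara, and Sertad1 with 11 each. All members of 6430527G18Rik and of Rnf4 were upstream, those of Rnf4 between 7996 and 9787 bp away in DOP and between 8030 and 9855 bp in untreated cells. All members of Tbx15 were in introns. The Sertad1 members ranked lowest, with a median percentile of 24.8 in DOP and 17.6 in untreated cells.

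In 324 of the 1602 genes (20.2%), members in both lists were not accompanied by any peak within 1 kb of a protein-coding start. The highest-ranked of these genes by mean percentile was Chadl, with 1 member in each list in a coding exon, 2815 to 2819 bp away, at percentile 97.2 in DOP and 94.9 in untreated cells. Next were Fbrs, with 2 members in each list 5658 to 5986 bp upstream and a top percentile of 96.7 in DOP and 91.6 in untreated cells, and Ltbp3, a matrix protein that binds latent TGF-beta, with 2 members in each list and top percentiles of 97.3 and 94.1. They were followed by 2810008M24Rik, Nrbp2, Gm17379, Ap1m2, Elovl6 (a fatty acid elongase), Gm8841 and Slc45a3. The Elovl6 members lay in the first part of the gene, 1573 to 3685 bp downstream, with top percentiles of 98.9 in DOP and 92.7 in untreated cells. Of the 324 genes, 318 had no member in repeated sequence, and 80 had a member within 1 kb of a start of another kind. Among the genes named here these were Chadl, with both of its members, and Gm17379, with 2 of its 5. Gm17379 also had 1 member in repeated sequence.

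Scores placed members below the middle of the lists. The score is the authors' own and its definition was not given in the sources used here, so it was read as a rank within each list. The median percentile was 39.97 in DOP and 37.6 in untreated cells, against 63.7 and 62.1 for shared promoter peaks and 27.7 and 24.6 for shared peaks at 10 to 100 kb. Chained members stood higher, at medians of 47.9 and 47.6, than members standing apart, at 35.2 and 32.0. Without the definition of the score, rank cannot be read as an amount of acetylation. In bulk chromatin a lower rank can come, among other things, from acetylation in fewer cells or from less acetylation per cell. These cannot be told apart.

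Outside repeated sequence the highest-scoring members in DOP were assigned to Gm10800, Zfhx3 (a zinc finger homeobox transcription factor), Tsc22d2, Spen and Irf2, at percentiles from 99.6 to 99.9. In untreated cells they were assigned to Gm10800, Zfhx3, Irf2, Aim1 and Setd1b (a histone H3 lysine 4 methyltransferase), at percentiles from 99.5 to 99.9. The Gm10800 interval was unlike the others, with a GC content of 33.5% in DOP and 33.0% in untreated cells. In it 23.8% and 20.6% of the 12-letter words occurred at least 3 times nearby, just under the limit of 25% used here to call a sequence repeated.

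The 2 lists ranked the same members similarly. Members were paired across lists when each was the nearest centre of the other, which gave 2259 pairs with a median offset of 32 bp. Across these pairs Pearson's r of the percentiles was 0.931 and Spearman's rank correlation 0.928, against an r of 0.908 over all pairs and 0.944 over pairs at 10 to 100 kb. These are correlations across sites of 2 lists chosen for overlapping, and sites are not replicates. The median difference, DOP minus untreated, was 1.95 percentile points, against 1.34 over all 25377 pairs of shared peaks, 1.14 in promoter pairs and 1.90 in pairs at 10 to 100 kb. Members standing apart had a median difference of 2.40 and chained members 0.39. The DOP list is the longer one, and a percentile depends on the other peaks of its list, so a shift this small has no error to be set against.

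Of the 2259 pairs, 122 (5.40%) differed by more than 20 points, 75 higher in DOP and 47 higher in untreated cells. Over all pairs of shared peaks the share was 9.41% (1435 higher in DOP and 952 in untreated cells), among promoter pairs 9.73% and among pairs at 10 to 100 kb 4.46%. The largest rises in rank with DOP were near Zfp53 (percentile 23.2 untreated, 70.2 DOP), Zfp870 (26.3, 71.4), Topors (45.4, 88.3), Arpm1 (29.9, 69.0) and Btbd19 (32.7, 71.8). The Zfp53 peak lay 378 bp from the start of the lincRNA Gm17372, and the Arpm1 peak 255 bp from the start annotated as Telomerase-vert, the RNA component of telomerase. The largest falls were near Unkl (percentile 75.7 untreated, 24.2 DOP), Hes1 (72.4, 26.9), Bend3 (76.4, 35.3), Ptpn9 (51.1, 14.2) and Zfp445 (61.4, 25.9). The Unkl peak lay 233 bp from the start of the annotated pseudogene BC003965. Hes1, a repressor induced by Notch, had 6 members in DOP and 4 in untreated cells, and the fall concerned 1 pair 1932 bp upstream in DOP and 1842 bp upstream in untreated cells. A pair leaves out other members nearby. Counted by nearest start, BC003965 had 3 members in DOP and 2 in untreated cells, among them a DOP member at percentile 75.9. Gm17372 had 1 and 2 members, and Telomerase-vert 3 and 2. The part of signal split into different peaks in the 2 lists was not tested. Without lists per sample, none of these differences could be set against a replicate error.

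**Figure D4:**
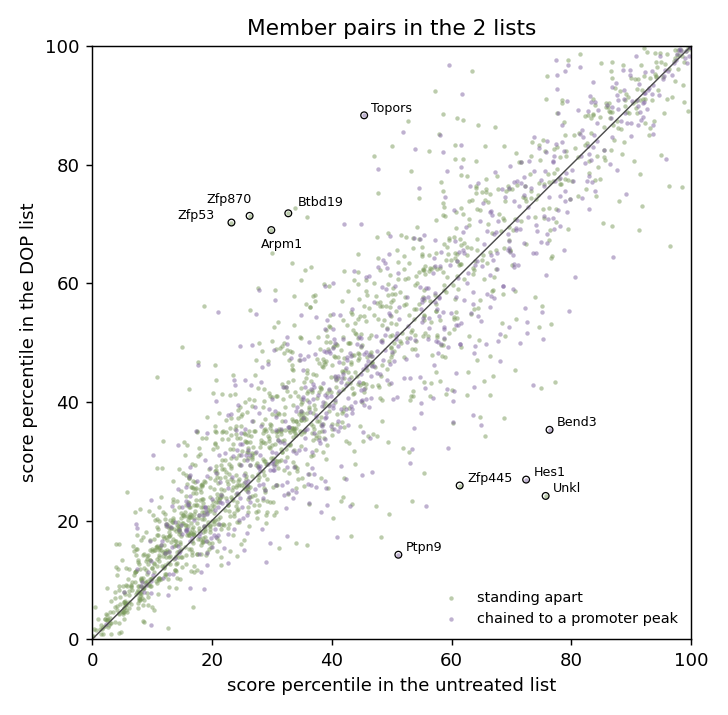
Score percentile in the DOP list (y axis) against that in the untreated list (x axis) for the 2259 member pairs, green for members standing apart and purple for members chained to a promoter peak, with the line of equality. The 5 largest rises and 5 largest falls are circled and named; most points lie near the line, and 122 lie more than 20 points from it.

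A block of repeated sequence took the top of the ranking. On chromosome 9 between 3002017 and 3038246 there were 20 members in each list, all with repeated sequence, a median GC content of 35.0% in DOP and 34.5% in untreated cells, and median percentiles of 99.7 and 99.03. Of the 10 highest-scoring members, 9 in each list were in repeated sequence. These peaks were assigned to predicted genes such as Gm11168, which had 8 members in each list and so ranked among the genes with the most members. Repeated sequence made up 1.18% of DOP members and 1.31% of untreated members in all. Without them the counts of members and the shares downstream, chained and CpG-island-like kept within their intervals. The part of repeated sequence in these ranks was not tested.

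Gene lists chosen for this line and treatment are given as counts of genes with members in both lists. They are to be read against 7.16% of all protein-coding genes and 11.2% of genes with a shared promoter peak. Immediate early genes, which respond to growth factors and stress within minutes, had members in 17 of 34 genes, and in 14 of the 30 with a shared promoter peak (46.7%). Ier2 had 5 members in DOP and 3 in untreated cells, Cyr61 (a matricellular protein) 3 and 4, and the AP-1 subunits Fosb and Junb 3 in each list. The top Junb member was at percentile 92.4 in DOP and 88.2 in untreated cells, and that of Cyr61 at 87.0 and 92.3. These genes are short, with a median length of 4104.5 bp, so members downstream can lie past the end of the gene. Focal adhesion and actin genes had members in 20 of 55 genes and in 19 of the 49 with a shared promoter peak (38.8%). Ahnak, a giant scaffold protein, had 3 members in each list with a top percentile of 92.5 in DOP and 88.8 in untreated cells. Cnn3, Itgb5 and Vcl (vinculin) had 2 in each list, and Tpm4 (tropomyosin) had 1 in each list at 89.7 and 86.8.

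Axon guidance genes had members in 6 of 63 genes (5 of the 32 with a promoter peak) and cytosolic ribosomal proteins in 12 of 82 (12 of 78). Collagens had members in 3 of 43 genes (2 of 15). Of the genes of histone acetylation, 3 of 29 had members in both lists (3 of 26). They were Sirt4, a mitochondrial sirtuin, whose 5 members over both lists lay 4581 to 5374 bp upstream and within 1 kb of a U4 snRNA start, the acetyltransferase Crebbp with 1 chained member in each list at percentiles 60.1 and 40.2, and the deacetylase Hdac7 with 1 in each list at 65.5 and 67.4. Of the genes of sphingolipid metabolism and signaling, 1 of 36 had members in both lists (1 of 22). This was S1pr2, a receptor of S1P, with 1 member in each list 4211 to 4218 bp downstream at percentiles 61.1 and 59.3. The sphingomyelin synthase Sgms1 had a member in DOP only, centred 1037 bp upstream of the start, near the inner limit. By the selection this peak overlapped an untreated peak, so it was not found with DOP alone.

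**Figure D5:**
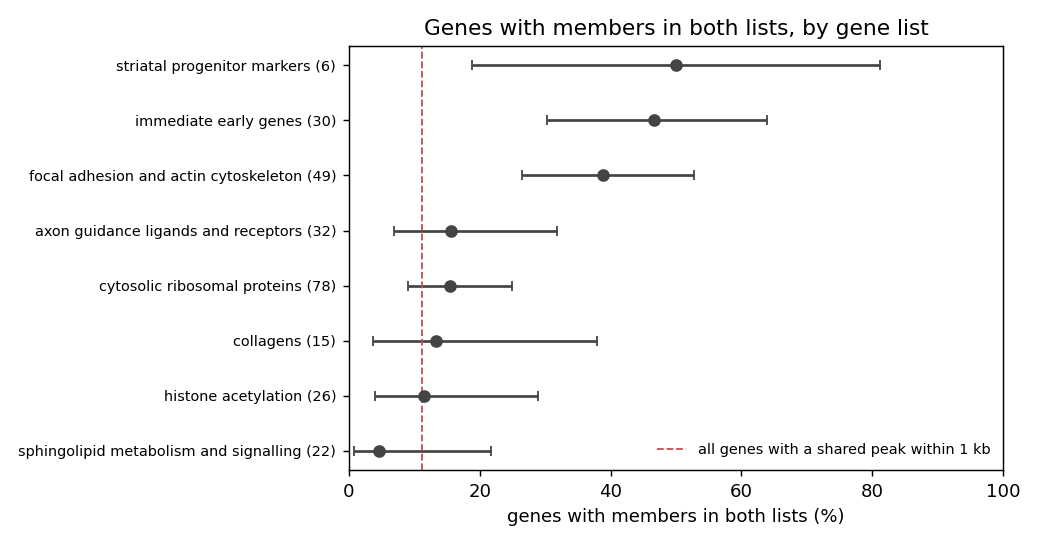
Genes with members in both lists (x axis, % of the list's genes that have a shared peak within 1 kb of a start, whose number stands in parentheses), for 8 gene lists. Points are shares, bars 95% Wilson intervals that cover counting only, and the dashed line is the 11.2% of all genes with such a peak. Striatal progenitor genes (3 of 6, 50%), immediate early genes (46.7%) and focal adhesion and actin genes (38.8%) lie farthest to the right of it. Sphingolipid genes (1 of 22) lie to its left.

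The labelled cell type was compared with marker genes, beside 11005 of all 22380 protein-coding genes with a shared peak within 1 kb of a start. Of all these genes, 1602 (7.16%) had members in both lists. Gene lists were counted by annotated gene identifier, so Gsx2, Hdac4 and Efna5, which carry more than 1 identifier, stand more than once in their lists. Of 21 annotated striatal progenitor genes, 15 had no shared peak within 1 kb of a start, among them Nes, Sox2, Pax6, Dlx2 and Gsx2. Members in both lists were found for 3 (Hes1, Meis2 and Notch1), all among the 6 with a shared promoter peak (50%, Wilson interval 18.8 to 81.2). Of 20 markers of mature striatal neurons, 17 had no shared promoter peak, including Drd2, Adora2a and Penk. In all, 4 had members in both lists, 2 of them among the 3 with a shared promoter peak. Meis2 stands in this list and in that of the progenitor genes, so it is counted in both. In DOP and untreated cells, in that order, these were at percentiles of 5.45 and 3.86 for Pde10a, 15.1 and 9.69 for Ppp1r1b (DARPP-32), 16.9 and 13.4 for Foxp1, and 35.2 and 41.0 for Meis2. Markers of astrocytes, oligodendrocytes, microglia and endothelium, 6 genes each, lacked a shared promoter peak in 5, 5, 6 and 5 genes. The astrocyte marker S100b and the oligodendrocyte marker Mog had members in both lists, 1 of 6 genes each. No marker of microglia or endothelium had a member.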

How the data were processed

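H3K9ac ChIP-seq of STHdh Q111 cells was deposited as 1 list of GEM binding events per condition on mm9, with 2 samples labelled for each condition. The study's methods name Bowtie 2 for alignment and the submitters' processing notes name BWA 0.7.10. How the 2 samples and the IgG control entered the call, and at which threshold, was not given in the sources used here, and the IgG sample enters no comparison here. The score in the deposited lists is the authors' own and was used only as a rank within its list. Centres were read as written.

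Distances to starts of protein-coding transcripts were taken from GENCODE vM1, and sequence from the mm9 (NCBIM37) genome, with python 3.11.15, numpy 2.4.6, pandas 2.3.3 and scipy 1.17.1. Shares carry 95% Wilson and differences 95% Newcombe intervals, and no p-value was computed, since each condition has 1 list. Sequence was called repeated when at least 25% of its 12-letter words occurred 3 times or more nearby. The functions recovered 8 of 8 planted answers when tested on simulated data.

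Genes were named by rule: the 10 with the most members over both lists and ties, the 5 highest-scoring members per list outside repeated sequence, the 5 largest rises and falls of percentile among pairs, the leading genes of each gene list, the peaks next to each limit, and the 10 highest-ranked genes without a peak within 1 kb. Non-coding and pseudogene starts, and the genes beside them, were named after their values were seen. Printed sequences were taken from the 4 highest-ranked of each kind, wholly in an intron or outside protein-coding genes and not in repeated sequence. Of these 1 sequence, and 1 of the gene lists, are not reported here. The members, gene lists and named-gene rules were chosen with earlier results of these data known. Alternatives changed the overlap, the score, the set of starts, the inner limit, repeats and chains.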

Additional observations from a re-analysis of the deposited data

How the results depend on the processing

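No paired analysis was possible because each condition was deposited as 1 list, so no replicate could be blocked or left out either. Of 72 values recomputed (the number of members and the shares downstream, CpG-island-like and chained, in both lists under 9 settings), 42 stayed within 1.5 times the count or within the 95% interval of the share and 30 did not. All 8 values stayed without repeated sequence, and all 8 with centres read as counted from 0, an alternative chosen after seeing the data. With the inner limit at 2 kb, which removes the densest bins, 1376 DOP and 1359 untreated members remained, of which 45.2% and 45.3% were downstream, 34.0% and 34.2% CpG-island-like and 1.82% and 2.28% chained. Downstream members were then the smaller part, so the downstream excess rests on the first kilobase. Keeping only members in the top 50% of their own list by score left 892 and 859 members. Overlap and chains were still judged on the full lists. Of these members, 62.8% and 63.6% were downstream, 46.0% and 47.3% CpG-island-like and 42.0% and 45.6% chained. With 1 start per protein-coding gene, 71.6% and 71.7% were downstream and 41.5% and 41.5% CpG-island-like. With every transcript start of protein-coding genes, 30.6% and 31.3% were chained. With 1 peak per chain, 61.4% and 61.3% were downstream and 36.8% and 37.7% chained. With centres within 500 bp in place of overlap, 29.2% of DOP members were CpG-island-like, and 36.0% of DOP and 37.1% of untreated members were chained. With an overlap of at least 50%, 32.1% of untreated members were chained. The causes of these shifts were not tested, apart from the removed bins. The CpG-island-like share of members reached at most 47.3% in these alternatives, in untreated members of the top 50% by score. The share of promoter peaks, 57.5% and 57.4% in the main setting, was not recomputed under them. The difference between members and promoter peaks is thus known for the main setting only. Depth is unknown, and no interval covers the error between samples.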

Other observations

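The highest-ranked members outside repeated sequence that lay within 1 kb of a start not typed as protein-coding in GENCODE vM1 are named here, a choice made after their values were seen. The first was at B330016D10Rik, an annotated pseudogene upstream of Spen, with 3 members in each list and a top percentile of 99.6. Next came the pseudogene Gm10812 near Aim1, with 2 members in DOP and 1 in untreated cells and a top percentile of 99.6. The processed transcript AI480526 had 5 members in DOP and 3 in untreated cells, most of them nearest to Setd1b, with a top percentile of 99.5. Pdf, near Cog8, had 3 members in each list and a top percentile of 97.7. H1f0, a linker histone gene that this annotation types as a pseudogene, had 2 members in DOP and 4 in untreated cells and a top percentile of 97.6.

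Among members near another start, those at pseudogenes were CpG-island-like in 64.3% in DOP and 66.7% in untreated cells but had the lowest median percentiles of the lincRNA, processed transcript, pseudogene, miRNA and snoRNA groups, 19.4 and 19.2. Members near lincRNA starts were CpG-island-like in 52.6% and 50% and had median percentiles of 50.4 and 47.5. Members near snoRNA starts were CpG-island-like in 18.2% and 13.0%, with medians of 60.4 and 58.7.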
